A study of Mus musculus with 6 samples.

Results

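The 35 genes described here encode extracellular and surface parts of the Wnt pathway outside the Wnt ligands best known from kidney development. They were chosen by gene symbol and comprise 11 ligands (Wnt2, Wnt3, Wnt3a, Wnt5b, Wnt7a, Wnt8a, Wnt8b, Wnt9a, Wnt10a, Wnt10b and Wnt16), 14 receptors and co-receptors (Fzd1 to Fzd10, Lrp5, Lrp6, Ror1 and Ror2) and 10 secreted antagonists (Dkk1 to Dkk4, Sfrp1, Sfrp2, Sfrp4, Sfrp5, Wif1 and Frzb). All 35 were found, each on 1 row, among 21937 genes. The data are chromatin immunoprecipitation sequencing (ChIP-seq) libraries of mK3 and mK4, a pair of mouse cell lines labelled as immortalized from the metanephros, the embryonic precursor of the kidney, at E11.5 and as strain CD1. For each line there were 3 libraries, made with H3K4 antibody, with H3K27 antibody, or from input chromatin that was not immunoprecipitated, and no treatment is named. The labels do not say how the lines were immortalized or whether each is 1 clone. By its title the series concerns histone methylation and cell fate in the progenitors of the nephron.

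Wnt proteins are secreted lipid-modified signals that bind Frizzled receptors on the cell surface. With the co-receptors Lrp5 and Lrp6 this stabilises beta-catenin, whereas Ror1 and Ror2 are kinase-like receptors of beta-catenin-independent signalling. Dickkopf (Dkk) proteins such as Dkk1 bind the Lrp co-receptors, and the Sfrp proteins, Frzb and Wif1 bind Wnt proteins outside the cell. In the developing kidney, Wnt signals from the ureteric bud set progenitors of the nephron on the way to epithelium. Trimethylation of H3K27 is the mark of Polycomb-silenced genes, and methylation of H3K4 is usually found at active promoters.

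The reads of each library counted over exons summed to between 311409 (mK3 input) and 714011 (mK4 H3K4), and the 35 genes held between 789 and 1646 of them. With 1 library per group no test between groups was possible, and the 95% intervals below are exact intervals that cover counting error only. Values are read shares (reads of a gene out of the library total) or log2 ratios of counts scaled to equal library totals plus 5. A gene is counted as marked when that ratio to its own line's input was at least 2-fold. The catalogue number given for the H3K4 antibody, ab8898, is one under which Abcam sells an antibody against trimethylated H3K9, so the label does not settle which modification these libraries hold, and "H3K4" below means only that label. The titles of the H3K27 libraries name no degree of methylation, so H3K27 below is also only that label and need not be trimethylation alone. The files hold chromatin reads and no RNA, so the cell type of the lines could not be checked by expression. As a background, H3K27 passed this rule at 10.3% of the 21937 genes in the mK3 library and at 9.06% in the mK4 library. Of 10 genes of the metanephric mesenchyme it marked 1 and 0, and lay above input at any size at 9 and 4. It marked 2 and 1 of 6 genes of the ureteric bud. For 5 genes of the endothelium these counts were 1 and 1, and for 5 of the renal stroma 0 and 1. Above input at any size were 4 and 3 genes of the bud and 5 and 4 of the endothelium. In the stroma there were 2 and 2. Among the 21937 genes that share was 49.7% (mK3) and 47% (mK4).

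Taken as groups, the ligands and the antagonists held more H3K27 than input and the receptors held less, in both lines. The 11 ligands took 0.0739% of the H3K27 reads and 0.0417% of the input reads in mK3, a ratio of 1.77 (1.45 to 2.17), and 0.068% against 0.0388% in mK4, a ratio of 1.75 (1.44 to 2.14). For the 10 antagonists the ratio was 1.55 (1.27 to 1.89) in mK3 and 1.56 (1.27 to 1.92) in mK4. The 14 receptors lay below input, with 0.807 (0.722 to 0.903) in mK3 and 0.782 (0.69 to 0.886) in mK4. Their summed input was dense per exon length, at 23.6 RPKM (count over exon length and library total) in mK3 and 18.8 in mK4. All genes together gave 16.1. The H3K27 density of the receptors was 19.1 in mK3 and 14.7 in mK4, so it was low against their input and not against all genes in mK3. For the ligands it was 26.7 and 24.6, and for the antagonists 26.5 and 22.6. Set against the receptors, the ratio of the ligands was 2.19-fold higher (1.74 to 2.77) in mK3 and 2.24-fold higher (1.77 to 2.84) in mK4, and that of the antagonists 1.92-fold (1.53 to 2.41) and 1.99-fold (1.56 to 2.54) higher. Ligands and antagonists were not separated from each other by their H3K27 over input, with a ratio between them of 1.14 (0.86 to 1.52) in mK3 and 1.12 (0.843 to 1.5) in mK4. The plot of subgroup ratios shows the ligands and antagonists above the receptors for H3K27 over input in both lines.

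**Figure D1:**
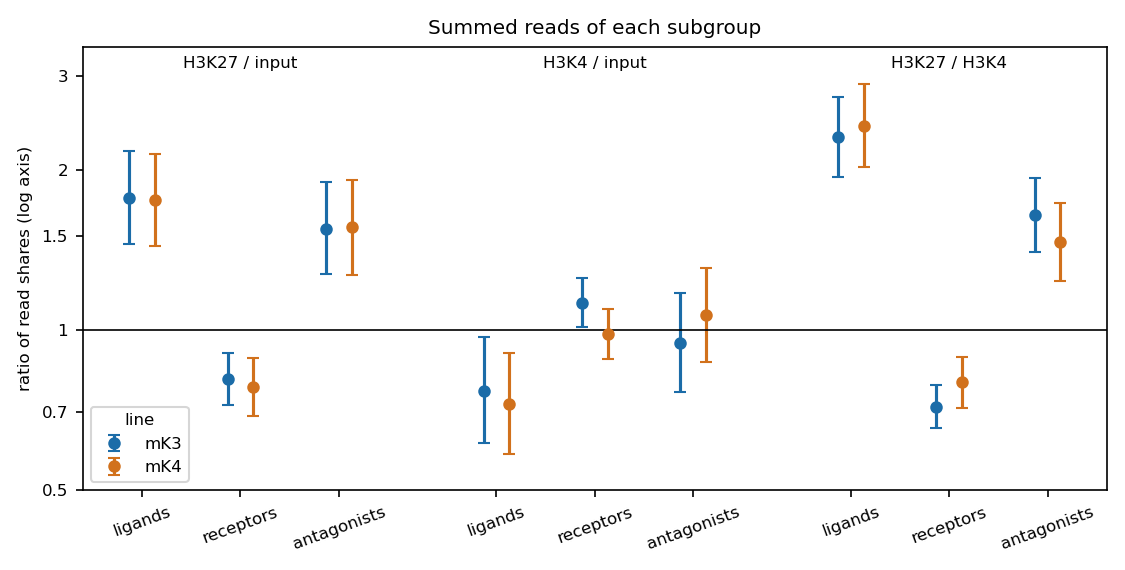
Ratio of the summed read shares of the ligands, receptors and antagonists (log axis) for H3K27 over input, H3K4 over input and H3K27 over H3K4, in mK3 (blue) and mK4 (orange), with 95% exact counting intervals as bars. The receptors sit below 1 for H3K27 over input (0.807 and 0.782) and the ligands and antagonists above it.

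The H3K4 libraries gave another order. The ligands lay below input, at 0.769 (0.612 to 0.968) in mK3 and 0.726 (0.584 to 0.903) in mK4. The receptors lay at 1.13 (1.01 to 1.25) in mK3 and 0.981 (0.88 to 1.09) in mK4, and the antagonists at 0.944 (0.764 to 1.17) and 1.06 (0.869 to 1.31). Because both marks were read against the same input, the marks were also set against each other, a comparison chosen after the data were seen. The ratio of the H3K27 share to the H3K4 share was 2.3 (1.94 to 2.74) for the ligands in mK3 and 2.41 (2.02 to 2.89) in mK4. It was 1.64 (1.4 to 1.93) and 1.46 (1.24 to 1.73) for the antagonists. For the receptors it was 0.717 (0.654 to 0.786) in mK3 and 0.797 (0.713 to 0.889) in mK4. In H3K27 over H3K4, in which the input plays no part, the ligands and the antagonists thus again lay above the receptors in both lines. This ratio also carries the H3K4 differences given above, so it does not stand for H3K27 alone.

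By gene, H3K27 was above input at any size in 10 of the 11 ligands in mK3 and 9 in mK4, in 7 and 9 of the 10 antagonists, and in 3 and 5 of the 14 receptors. Over all genes the shares were 49.7% in mK3 and 47% in mK4. H3K27 marked 7 of the 35 genes in mK3, where it marked 10.3% of all genes, and 8 in mK4, where it marked 9.06%. By subgroup the marked genes were 2 ligands, 1 receptor and 4 antagonists in mK3, and 4 ligands, 2 receptors and 2 antagonists in mK4. The median log2 ratio of H3K27 to input was 0.64 and 0.69 for the ligands in mK3 and mK4, 0.36 and 0.72 for the antagonists and -0.30 and -0.19 for the receptors, beside 0 for all genes in each line. Wnt8b, Dkk1 and Sfrp5 were marked in both lines, as were 2.85% of all genes. Across the 35 genes the ratio in mK3 and that in mK4 had a Pearson correlation of 0.52 and a Spearman correlation of 0.50, a description over genes whose 4 libraries and whose exon lengths are shared.

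**Figure D2:**
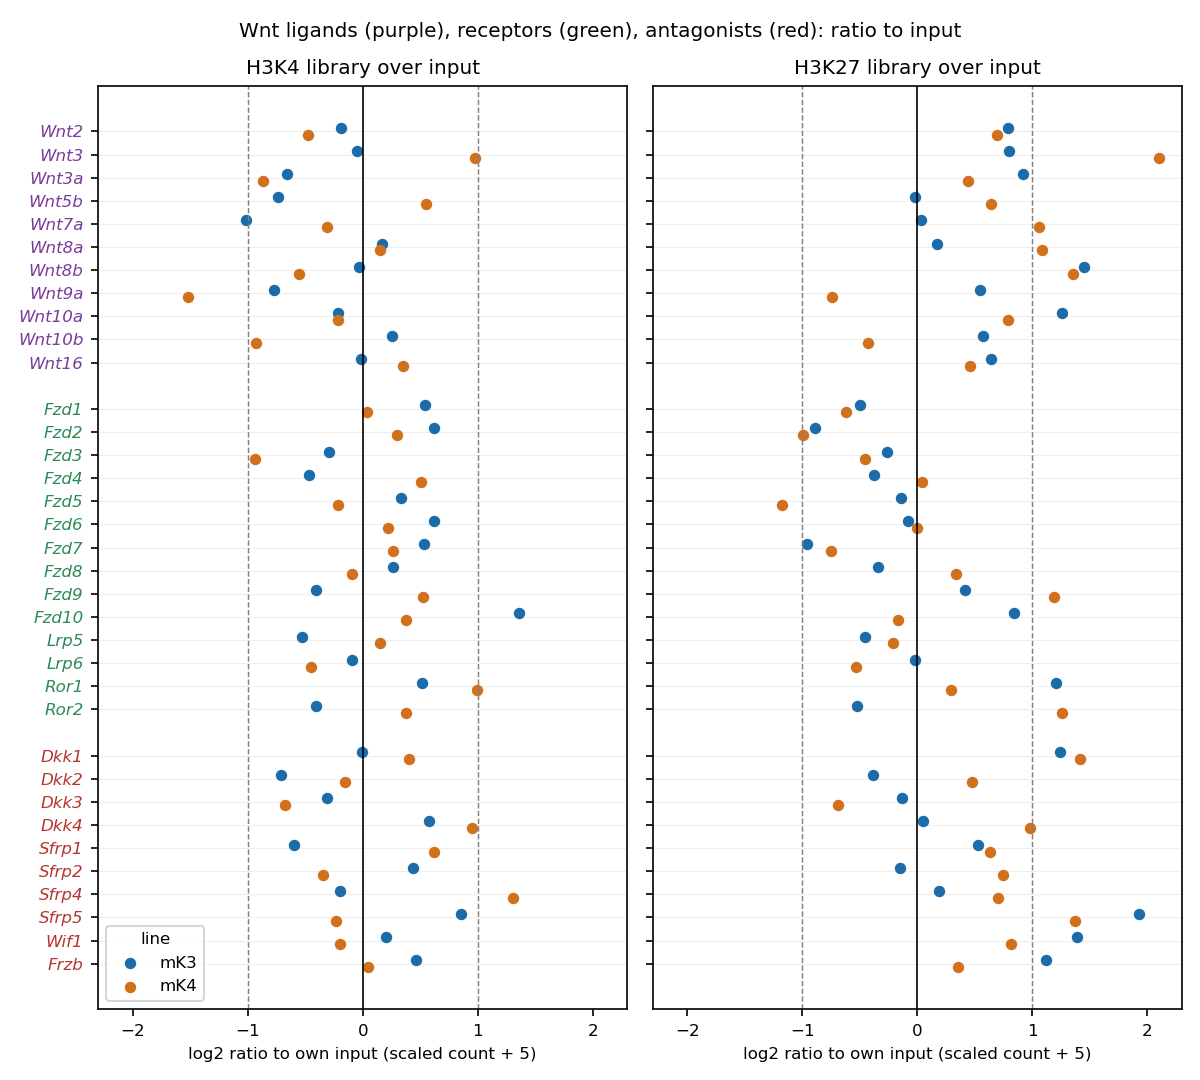
Log2 ratio of each gene's scaled count plus 5 to that of its own line's input, for the H3K4 libraries (left) and the H3K27 libraries (right), in mK3 (blue) and mK4 (orange). Dashed lines mark 2-fold, and Wnt8b, Dkk1 and Sfrp5 lie beyond it for H3K27 in both lines.

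The sequences just upstream of the RefSeq start of 4 genes are shown. They set the 3 genes marked by H3K27 over input in both lines beside Fzd7, a receptor below input in both. Each is 250 bases long in RefSeq build GRCm38.p6, 5′ to 3′ on the gene's strand, with CpG dinucleotides in capitals. Wnt8b is at chr19:44493222-44493471 (plus strand), Dkk1 at chr19:30549497-30549746 (minus), Sfrp5 at chr19:42202253-42202502 (minus) and Fzd7 at chr1:59481897-59482146 (plus).
Wnt8b: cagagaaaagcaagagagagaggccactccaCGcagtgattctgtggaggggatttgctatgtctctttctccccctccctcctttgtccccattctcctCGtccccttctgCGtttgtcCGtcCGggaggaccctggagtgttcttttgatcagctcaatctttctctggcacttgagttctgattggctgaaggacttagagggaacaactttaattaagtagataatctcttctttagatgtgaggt
Dkk1: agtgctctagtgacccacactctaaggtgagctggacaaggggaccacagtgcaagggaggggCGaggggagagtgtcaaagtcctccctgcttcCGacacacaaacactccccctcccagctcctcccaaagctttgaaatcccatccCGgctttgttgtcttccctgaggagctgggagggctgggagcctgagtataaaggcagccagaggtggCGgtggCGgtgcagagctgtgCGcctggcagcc
Sfrp5: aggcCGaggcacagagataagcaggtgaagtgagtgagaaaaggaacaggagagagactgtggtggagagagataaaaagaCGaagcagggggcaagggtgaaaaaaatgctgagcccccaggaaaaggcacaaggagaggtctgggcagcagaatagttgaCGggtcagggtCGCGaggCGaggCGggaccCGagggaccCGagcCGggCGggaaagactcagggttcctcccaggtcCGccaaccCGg
Fzd7: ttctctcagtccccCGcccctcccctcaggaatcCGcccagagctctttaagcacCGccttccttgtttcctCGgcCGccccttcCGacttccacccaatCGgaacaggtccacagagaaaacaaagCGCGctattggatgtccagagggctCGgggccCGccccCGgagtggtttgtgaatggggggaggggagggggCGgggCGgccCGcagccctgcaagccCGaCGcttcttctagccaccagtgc
These windows hold 5 CpGs at Wnt8b, 6 at Dkk1, 13 at Sfrp5 and 17 at Fzd7. All 4 lie below the median of 20 over the 23 genes with a window, so they do not stand for marked and unmarked genes. The deposited counts are over exons, on build mm9, and leave out reads upstream of the first exon.

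Among the ligands, Wnt8b, a Wnt gene of the embryonic forebrain, had 83 H3K27 reads against 14 input reads in mK3 and 71 against 20 in mK4, with 26 and 23 H3K4 reads. Its H3K27 share was 3.11-fold the input (1.75 to 5.94) in mK3 and 2.85-fold (1.72 to 4.95) in mK4. It was high in both H3K27 libraries and not above input in the H3K4 libraries. Wnt10a, a Wnt gene of teeth and hair, had 49 H3K27 reads against 9 input reads in mK3 and 40 against 17 in mK4, with 14 and 26 H3K4 reads. The ratio to input was 2.86 (1.39 to 6.62) in mK3, where the gene was marked, and 1.89 (1.05 to 3.56) in mK4. The H3K27 density of Wnt10a was 42 RPKM (the count divided by the exon length and by the total count of the library) in mK3 and 42.3 in mK4. The ratio of its input shares, mK4 to mK3, was 1.52 (0.641 to 3.87), which includes 1.

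The other 3 marked ligands were marked in mK4 only by the 2-fold rule. Wnt3, a ligand needed for the primary body axis, had 44 H3K27 reads against 12 input reads in mK3 (ratio 1.93, 1 to 4) and 26 against 2 in mK4 (ratio 10.4, 2.62 to 90.8), with 22 and 14 H3K4 reads. Its input was the lowest of the 35 genes per exon length in mK4, at 1.66 RPKM, and its H3K27 density was lower in mK4 (17.3 RPKM) than in mK3 (23.8 RPKM). Wnt7a, a ligand of limb and Müllerian duct patterning, had 37 H3K27 reads against 19 input reads in mK3 (ratio 1.02, 0.573 to 1.88) and 49 against 17 in mK4 (ratio 2.32, 1.31 to 4.29), and 15 and 24 H3K4 reads. Wnt8a, a ligand of the gastrulating embryo, had 20 H3K27 reads against 9 input reads in mK3 (ratio 1.17, 0.508 to 2.91) and 21 against 6 in mK4 (ratio 2.81, 1.1 to 8.52), and 20 and 13 H3K4 reads. Input counts below 10 made the ratios of Wnt8a and, in mK4, of Wnt3 imprecise.

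The remaining 6 ligands (Wnt2, Wnt3a, Wnt5b, Wnt9a, Wnt10b and Wnt16) were neither marked over input nor 2-fold different between the lines for either mark. Their log2 H3K27 ratios to input lay between -0.02 and 0.91 in mK3 and between -0.74 and 0.69 in mK4. Wnt3a, a ligand of the tail bud and somites, had the highest of these in mK3, with 41 H3K27 reads, 10 H3K4 reads and 10 input reads, and 27, 12 and 15 in mK4. Set against the H3K4 library in place of input, H3K27 was at least 2-fold higher at 9 of the 35 genes in mK3 (11.8% of all genes) and 10 in mK4 (10.4%). Wnt3a was among them in both lines, as were Wnt7a, Wnt8b, Wnt10a, Dkk1, Sfrp5 and Wif1, 7 of the 35 genes where 4.34% of all genes did so. None of these 7 was a receptor. The reverse, at least 2-fold more H3K4 than H3K27, was found at 3 of the 35 in mK3 (Fzd1, Fzd2 and Fzd7, beside 8.36% of all genes) and at 2 in mK4 (beside 9.32%). Fzd2 and Fzd7 passed in both lines, where the share of all genes was 4.08%.

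Among the receptors, H3K27 marked Ror1 in mK3 and Fzd9 and Ror2 in mK4. Ror2 had 38 H3K27 reads against 30 input reads in mK3, a ratio of 0.665 (0.401 to 1.11), and 51 against 15 in mK4, a ratio of 2.73 (1.51 to 5.23). Its H3K27 lay below input in mK3 and above it in mK4, while the ratio of its input shares, mK3 to mK4, was 2.48 (1.3 to 4.97). Its H3K4 reads were 42 and 38. Ror1 had 47 against 9 in mK3, a ratio of 2.74 (1.33 to 6.36), and 24 against 15 in mK4, a ratio of 1.29 (0.647 to 2.64). Its H3K4 reads were 27 in mK3 and 62 in mK4, a ratio of shares, mK4 to mK3, of 1.91 (1.2 to 3.13). In mK4 its H3K4 was 2.24 (1.26 to 4.24) over input, and on the log2 scale with 5 added the ratio was 0.99, just under the rule. Its ratio of H3K27 shares, mK4 to mK3, was 0.629 (0.368 to 1.05), an interval that includes 1, and neither mark passed the 2-fold rule between the lines. Fzd9 had 50 H3K27 reads against 19 input reads in mK3 (ratio 1.38, 0.8 to 2.48) and 23 against 6 in mK4 (ratio 3.08, 1.22 to 9.25), with 26 and 19 H3K4 reads. Its mK4 call rested on few input reads.

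Of the other 11 receptors, 7 (Fzd1, Fzd4, Fzd5, Fzd6, Fzd7, Lrp5 and Lrp6) were neither marked over their own input nor 2-fold different between the lines for either mark, with log2 H3K27 ratios to input between -0.96 and -0.02 in mK3 and between -1.17 and 0.04 in mK4. Fzd2 had 55 H3K27 reads against 56 input reads in mK3 (ratio 0.516, 0.349 to 0.762) and 24 against 42 in mK4 (ratio 0.459, 0.266 to 0.776). Fzd7 had 53 against 57 (ratio 0.488, 0.329 to 0.722) and 35 against 50 (ratio 0.562, 0.354 to 0.884). Both genes lay below input in both lines. Fzd5 was near input in mK3, with 60 against 35, and below it in mK4, with 41 against 79 (ratio 0.417, 0.279 to 0.616). The co-receptor Lrp6 had 103 against 55 in mK3 (ratio 0.983, 0.702 to 1.39) and 56 against 67 in mK4 (ratio 0.672, 0.462 to 0.972), and Lrp5 had 36 against 27 and 23 against 22. Both co-receptors were thus without H3K27 above input.

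Among the antagonists, Sfrp5 had 38 H3K27 reads against 3 input reads in mK3 and 30 against 7 in mK4, with 15 and 10 H3K4 reads. The ratios were 6.65 (2.11 to 33.7) and 3.44 (1.48 to 9.29), and the low input counts left them wide. Dkk1 had 53 against 10 in mK3, a ratio of 2.78 (1.4 to 6.14), and 21 against 4 in mK4, a ratio of 4.22 (1.42 to 16.9), with 19 and 12 H3K4 reads. The ratio of its H3K27 shares, mK3 to mK4, was 2.05 (1.21 to 3.57) and that of its input shares 3.1 (0.895 to 13.6), so that the line with less H3K27 had the higher ratio to input. Wif1 had 64 against 11 in mK3, a ratio of 3.05 (1.6 to 6.42), and 32 against 13 in mK4, a ratio of 1.98 (1.01 to 4.11), with 25 and 20 H3K4 reads. At 47.9 RPKM in mK3, Wif1 had the highest H3K27 density of the 35 genes in that library. Frzb had 44 against 9 in mK3 (ratio 2.57, 1.24 to 5.98) and 22 against 13 in mK4 (ratio 1.36, 0.655 to 2.94), with 26 and 25 H3K4 reads. Dkk2, Dkk3, Dkk4 and Sfrp1 were not marked over input and differed by less than 2-fold between the lines for both marks, with log2 H3K27 ratios between -0.38 and 0.53 in mK3 and between -0.69 and 0.98 in mK4.

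H3K4 marked 1 of the 35 genes in mK3 (4.94% of all genes), 1 in mK4 (3.69%) and 0 in both lines (0.811%). In mK3 this was Fzd10, with 14 H3K4 reads, 8 H3K27 reads and 1 input read, and with 14, 5 and 5 in mK4. Its ratio in mK3 was 7.32 with an interval from 1.11 to 310, which rested on that 1 input read, and its H3K4 density was low at 7.87 RPKM. In mK4 it was Sfrp4, with 33 H3K4 reads against 5 input reads (ratio 3.57, 1.39 to 11.7), where mK3 had 21 against 13 (ratio 0.845, 0.404 to 1.84). Its H3K27 reads were 29 and 13. No gene of the 35 was marked for both H3K4 and H3K27 in the same line, where 1.39% of all genes were in mK3 and 0.78% in mK4.

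Fzd2 and Fzd7 held the highest H3K4 densities of the 35 genes in both lines, and Fzd2 also held the highest input densities. Fzd2 had 168 H3K4 reads and 56 input reads in mK3 and 97 and 42 in mK4, which gave 77.8 RPKM for H3K4 against 49.6 for input in mK3 and 37.4 against 29.9 in mK4. Its H3K4 density exceeded that of 98.9% of all genes in mK3 and its input density that of 98.3%, and in mK4 the shares were 93.1% and 90.9%. Fzd7 had 160 and 57 reads in mK3 and 112 and 50 in mK4, and Fzd1 had 128 and 45, and 74 and 39. Over input, H3K4 in mK3 was 1.57 (1.15 to 2.16) at Fzd2, 1.47 (1.08 to 2.02) at Fzd7 and 1.49 (1.05 to 2.14) at Fzd1, all with intervals above 1 and below the 2-fold rule. In mK4 the ratios were 1.25 (0.862 to 1.84), 1.21 (0.862 to 1.73) and 1.03 (0.688 to 1.56), with intervals that include 1. Against an expectation from exon length instead of the input, H3K4 passed 2-fold at Fzd1, Fzd2, Fzd7 and Fzd8 in mK3 and at Fzd2 and Fzd7 in mK4, where it passed at 9.03% and 9.46% of all genes. H3K27 then passed at Wnt8b, Wnt10a, Fzd9, Dkk1 and Wif1 in mK3 and at Wnt7a, Wnt8b, Wnt10a, Dkk2 and Sfrp5 in mK4, beside 3.37% and 6.34% of all genes. Wnt8b and Wnt10a passed in both lines. Of the H3K27 calls over input, Ror1, Frzb and Sfrp5 (log2 ratio 0.95) in mK3 were not past 2-fold against exon length. Nor were Wnt3 (0.28), Wnt8a, Fzd9, Ror2 and Dkk1 (0.40) in mK4. These include every receptor called for H3K27 over input. The H3K4 calls at Fzd10 in mK3 and Sfrp4 in mK4 were not past it either. The map of densities shows the Fzd2 and Fzd7 rows bright in the H3K4 and input columns of both lines, and the Fzd1 row mainly in those of mK3.

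**Figure D3:**
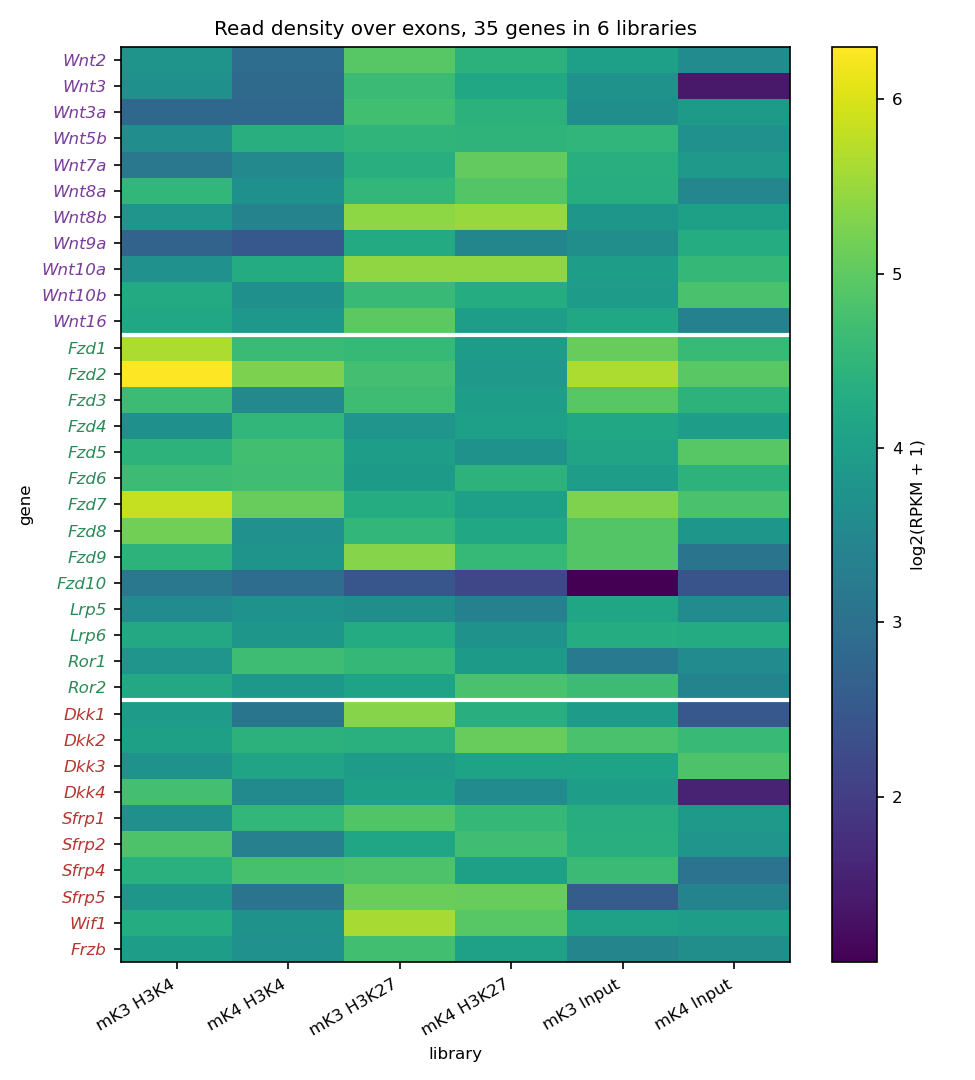
Read density of the 35 genes over their exons in the 6 libraries, as log2 of RPKM plus 1 (colour scale), with ligands, receptors and antagonists separated by white lines. Fzd2 has the highest density in the mK3 H3K4 library (77.8 RPKM) and in the mK3 input (49.6 RPKM).

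Between the lines, the 35 genes took a smaller share of the reads in mK4 in all 3 kinds of library. The ratio of mK4 to mK3 was 0.757 (0.704 to 0.814) for H3K4, 0.83 (0.768 to 0.896) for H3K27 and 0.826 (0.748 to 0.912) for input. The receptors had the lowest ratios, 0.692 (0.634 to 0.756) for H3K4, 0.769 (0.687 to 0.861) for H3K27 and 0.794 (0.702 to 0.899) for input. Divided by the input ratio, H3K4 of the receptors was 0.872 (0.748 to 1.02) and H3K27 was 0.968 (0.818 to 1.15), so that the difference of the marks beyond the input was not separable from counting error. For the ligands these quotients were 0.944 (0.686 to 1.3) and 0.99 (0.745 to 1.32), and for the antagonists 1.13 (0.836 to 1.52) and 1.01 (0.754 to 1.34). All of these quotients had intervals that include 1. Gene by gene, H3K4 was lower in mK4 at any size at 22 of the 35 (51% of all genes), H3K27 at 25 (54.3%) and input at 23 (49.9%).

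By gene, H3K4 was at least 2-fold lower in mK4 at 4 of the 35, where this held for 2.99% of all genes, and at least 2-fold higher at 0, where it held for 4.51%. Fzd8 had 70 H3K4 reads in the mK3 library and 29 in the mK4 library (2.9-fold lower, 1.85 to 4.63), beside 30 and 17 input reads and 44 and 28 H3K27 reads. Fzd3 had 183 and 96 H3K4 reads (2.29-fold lower, 1.78 to 2.96), beside 118 and 103 input reads and 186 and 92 H3K27 reads. At Fzd2 the H3K4 reads were 168 and 97 (2.08-fold lower, 1.61 to 2.7), beside 56 and 42 input reads. All 3 Frizzled genes had less input in mK4 as well. Sfrp2, an antagonist, had 33 and 13 (3.04-fold lower, 1.56 to 6.3) beside 12 and 10 input reads. Fzd2 stood at the threshold, with a log2 ratio of -1.0, and Fzd1 just outside it at -0.99. The highest log2 ratios the other way were 0.81 at Ror1, 0.78 at Sfrp1 and 0.77 at Fzd4. With each gene's own input ratio subtracted, the log2 ratios were -0.78 at Sfrp2, -0.64 at Fzd3, -0.36 at Fzd8 and -0.32 at Fzd2, and none of the 4 passed. By that measure H3K4 passed 2-fold towards mK4 at 4 genes (Wnt3, Wnt5b, Sfrp1 and Sfrp4, beside 7.54% of all genes) and towards mK3 at 2 (Wnt10b and Sfrp5, beside 7.36%). H3K27 did so towards mK4 at 3 (Wnt3, Wnt7a and Ror2, beside 7.35%) and towards mK3 at 3 (Wnt9a, Fzd5 and Fzd10, beside 9.23%).

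H3K27 differed by 2-fold between the lines at 0 of the 35 genes in either direction, where it was higher in mK4 at 3.73% and lower at 3.54% of all genes. The log2 ratios ran from -0.89 at Dkk1 to 0.66 at Dkk2. Sfrp2 had 20 H3K27 reads in mK3 and 24 in mK4 (ratio of shares, mK4 to mK3, 1.48, 0.783 to 2.82), so that its lower H3K4 in mK4 came with an H3K27 share that could not be told from equal. At Ror2 the H3K27 ratio, mK4 to mK3, was 1.65 (1.07 to 2.59), below the rule. The input, taken the same way, was at least 2-fold lower in mK4 at 6 of the 35 (Wnt3, Fzd9, Ror2, Dkk1, Dkk4 and Sfrp4), beside 6.2% of all genes, and higher at 0, beside 7.26%. Of these 6, Wnt3, Fzd9, Ror2 and Dkk1 are among the 8 genes marked by H3K27 in mK4, and Sfrp4 is the gene marked by H3K4 there. The part of low input in these mK4 calls was not tested. In the plot of line ratios these genes lie to the left.

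**Figure D4:**
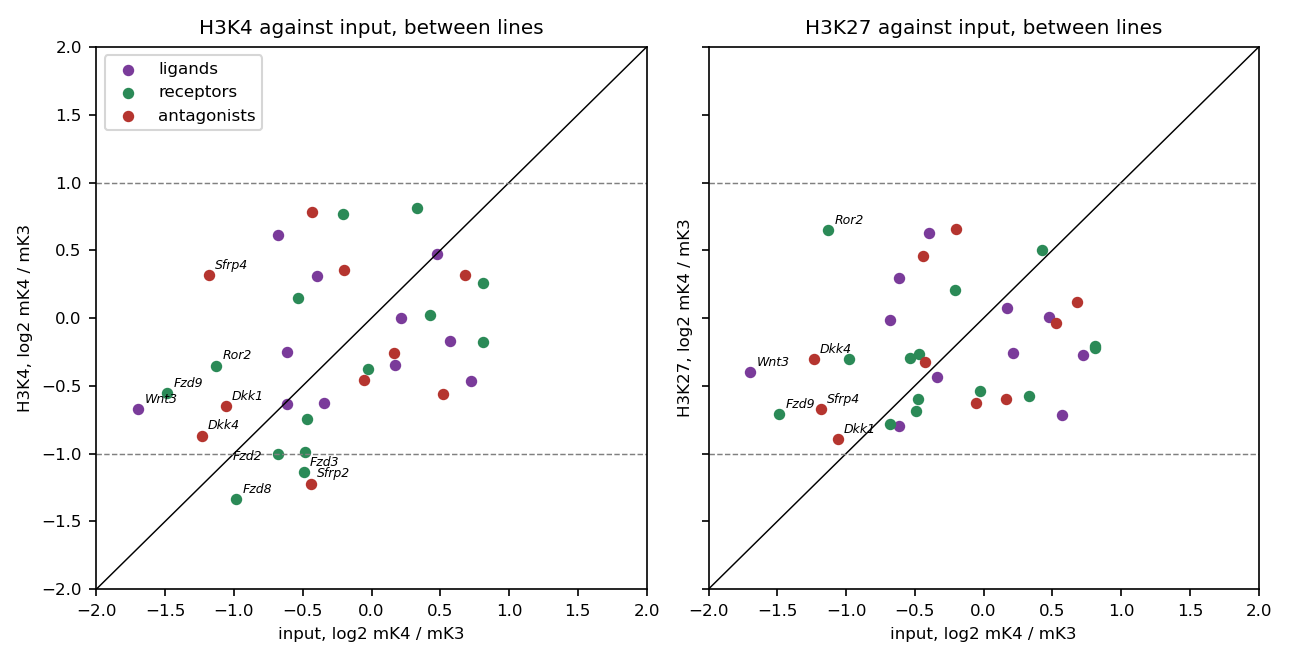
Log2 ratio of mK4 to mK3 for H3K4 (left) and H3K27 (right) against the same ratio of the input, for ligands, receptors and antagonists, with equality drawn as a line and 2-fold as dashed lines. Fzd2, Fzd3, Fzd8 and Sfrp2 reach the lower dashed line for H3K4, and no gene reaches either for H3K27.

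Some of the line differences ran with whole chromosomes and others did not. Fzd3 lies on chromosome 14, whose input share in mK4 was 0.644 of that in mK3, and its H3K4, H3K27 and input ratios were 0.437, 0.61 and 0.703. Dkk2 and Sfrp2 lie on chromosome 3 (input ratio 1.84), but their own input ratios were 0.857 and 0.671. Dkk3 and Fzd4 lie on chromosome 7 (1.54), and their own were 1.71 and 0.846. Sfrp2 was lower in mK4 for H3K4 although its chromosome was higher in all 3 kinds of library (1.86 for H3K4, 1.89 for H3K27). The chromosomes of 24 of the 35 genes had input ratios below 1. Weighted by the mK3 reads, these chromosome ratios alone would give an input ratio of 0.901 for the receptors (measured 0.794), 0.915 for the ligands (measured 0.929) and 1.33 for the antagonists (measured 0.846). Of the 5 genes on chromosomes 3, 7 and 14, Dkk2, Dkk3 and Sfrp2 are antagonists. In mK3 these were the antagonists with H3K27 below input (log2 ratios -0.38, -0.13 and -0.15). In mK4 they stood at 0.48, -0.69 and 0.74. Without the 5 genes, the H3K27 over input of the antagonists was 2.11 in mK3 and 2.09 in mK4. In mK3 the removal had to raise the ratio, so it does not measure an effect of the chromosomes.

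Other genes of the pathway were set beside these by the same rules, with the same background for H3K27 (10.3% in mK3, 9.06% in mK4). Of 19 intracellular components, from the Dvl genes to the Tcf factors, H3K27 marked 2 in mK3 (Axin2 and Tcf7) and 0 in mK4, with median log2 ratios to input of -0.37 and -0.58, below those of the receptors. Of 16 further secreted and surface components, which include the R-spondins, their Lgr receptors and the Wnt deacylase gene Notum, H3K27 marked 3 in mK3 and 4 in mK4, with medians of 0.18 and 0.27, and Notum and Kremen2 were marked in both lines. The list of 8 kidney Wnt ligands had H3K27 at 4 in mK3 (Wnt1, Wnt4, Wnt6 and Wnt7b) and at 1 in mK4 (Wnt1). Its median log2 ratios to input were 1.15 and 0.03, where the 11 other ligands had 0.64 and 0.69. Between the lines, mK4 minus mK3, the median log2 ratio of H3K27 was -0.28 for that list and -0.26 for the 11 ligands. For input it was 0.41 against -0.34, and for H3K4 0.40 against -0.25. H3K27 over H3K4 uses no input. By it, the 8 genes of that list had a share ratio of 1.99 (1.69 to 2.35) in mK3 and 1.23 (1.05 to 1.44) in mK4. For the intracellular components it was 0.629 (0.568 to 0.696) and 0.561 (0.502 to 0.627). For the 16 secreted and surface components it was 1.18 (1.05 to 1.33) and 1.24 (1.1 to 1.4), and for the 11 other ligands, as above, 2.3 and 2.41. Differences between these lists were not tested.

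The RefSeq table held an upstream window for 23 of the 35 genes. With a CpG-dense window taken as at least 55% G and C and a ratio of observed to expected CpGs of at least 0.6, 16 of the 23 (69.6%) were CpG-dense, against 27.8% of the windows of 27025 genes of all kinds. The windows ran from 5 CpGs at Wnt8b to 48 at Wnt9a, with a median of 20. The median log2 H3K27 ratio to input was 0.48 in mK3 and 0.67 in mK4 for the 16 dense windows and 0.64 and 0.46 for the 7 others, and CpG count and H3K27 ratio had Spearman correlations of -0.24 and -0.20 over the 23 genes, as a description. With the H3K4 ratio they were -0.41 in mK3 and -0.01 in mK4. The letters CTTTGA, the core of sites bound by Tcf and Lef factors, or TCAAAG on the other strand, occurred in the windows of 4 of the 23 genes (17.4%, Dkk1, Frzb, Fzd1 and Ror1) and in 14% of all windows.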

How the data were processed

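Counts per gene, exon lengths (in bases) and RPKM were used from 6 ChIP-seq libraries of mK3 and mK4, 1 per group. The deposited counts are whole numbers of reads for each gene, per the file headers. The authors' deposited RPKM was recomputed from count, exon length and each file's total, and matched. The submitters' processing notes name build mm9. Which aligner and counter were run is not given in the sources used here. Counting over exons leaves promoters upstream of the first exon unmeasured.

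Of 22088 rows, 1 row per symbol was kept, that with the highest mean ChIP count, which left 21937 genes (137 symbols had several rows). Counts were scaled to the mean library total of 513622, and log2 ratios used a pseudocount of 5, which understates differences of genes with few reads. Ratios of read shares use no pseudocount and have exact Clopper-Pearson intervals at 95%. Ratios of ratios have exact conditional intervals (scipy 1.17.1). With 1 library per group there was no test. The interval and the 2-fold rule were also tried on simulated data. The outcome is not given here, so that trial lends no support to the calls of single genes. Scaling factors for the alternatives came from edgeR 4.0.16 and DESeq2 1.42.0.

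The genes, lists and rules were chosen with earlier results of these data known. All 35 genes are accounted for. Reads in all 6 libraries are given for genes marked over input, or 2-fold different between the lines without input subtracted, and others by range. Values of Fzd1, Fzd4, Fzd5, Fzd7, Lrp5, Lrp6, Dkk2, Dkk3, Sfrp1 and Wnt3a were added after they were seen. Neighbouring genes were ordered, and promoter sequences taken, from RefSeq GRCm38.p6.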

Additional observations from a re-analysis of the deposited data

Results flagged for a closer look

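For 9 pairs of gene and mark among the 35 genes, the ratio to input lay above 1 in one line and below 1 in the other, with at least 2-fold between the lines. With 1 library per group these differences were not tested. Over all genes this held for 12.7% for H3K4 and 11.8% for H3K27, beside 6 and 3 of the 35. For H3K27 the log2 difference, mK4 minus mK3, was 1.78 at Ror2, -1.29 at Wnt9a (36 and 16 H3K27 reads beside 12 and 24 input reads) and -1.01 at Fzd10. For H3K4 it was 1.5 at Sfrp4, 1.29 at Wnt5b (16 and 33 H3K4 reads beside 16 and 11 input reads), 1.21 at Sfrp1 (31 and 69 beside 26 and 23) and 1.02 at Wnt3. It was -1.19 at Wnt10b (24 and 19 beside 10 and 23) and -1.08 at Sfrp5.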

How the results depend on the processing

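No paired analysis was possible because each group has 1 library, and none could be left out. The low depth limits single genes: 8 of the 35 had under 10 input reads in mK3 and 10 in mK4. Of the recomputed group results, 160 stayed within their interval or within 1.5 times the count and 27 did not, and no share ratio whose interval excluded 1 changed side. H3K4 marked 1 gene in mK3 and 2, 0, 0, 4 and 3 with a pseudocount of 1, of 10, a mean scaled count of at least 10, exon length or the other mark as background. In mK4 it marked 1, but 3 with TMM or DESeq2 scaling, 4 with a pseudocount of 1, and 2 with exon length or the other mark. H3K27 in mK4 marked 8, but 5 with a pseudocount of 10 or exon length. With own input subtracted, H3K4 was higher in mK4 at 4 and lower at 2 genes, and H3K27 at 3 and 3. With neighbour input, H3K4 was higher at 1. H3K4 was lower at 2 with a pseudocount of 10 or without chromosomes 3, 7, 14 and X. With a pseudocount of 1, H3K27 was lower at 1 and input higher at 1, and with 10 input was lower at 2. Without its member with the most reads, Fzd3, the H3K4 over input of the receptors in mK4 was 1.10. Without the named chromosomes, a removal added after the data were seen, the antagonists lost Dkk2, Dkk3 and Sfrp2, all below input for H3K27 in mK3. The other antagonists had 2.11 and 2.09 for H3K27 over input in mK3 and mK4. They had 1.47 for H3K4 over input in mK4 and 0.675 for H3K27 between the lines. Of the recomputed results of single genes, 1 reversed, the H3K4 of Fzd10 in mK3, with a log2 ratio of -0.59 against exon length. Another 8 results moved, with more than 1 each at Wnt3 and Fzd3. Against exon length, log2 H3K27 went from 2.10 to 0.28 at Wnt3 and from 1.41 to 0.40 at Dkk1 in mK4, and from 1.93 to 0.95 at Sfrp5 in mK3. For H3K4 between the lines, Fzd3 went from -1.14 to -0.64 with own and -0.27 with neighbour input subtracted, Fzd2 from -1.0 to -0.32 and Fzd8 from -1.34 to -0.36 with own input. With the other mark in place of input, Wnt3 was at 1.12. The causes were not tested.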
